A study of Mus musculus with 8 samples.

Results

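Polyunsaturated fatty acids are made in the liver by a relay of desaturases, which place double bonds, and elongases, which lengthen the chain. FADS2 acts first on the dietary linoleic and alpha-linolenic acids, ELOVL5 lengthens the product, FADS1 places the next double bond, and ELOVL2 lengthens the chain further on the way to docosahexaenoic acid. ELOVL1 and ELOVL3 instead lengthen saturated and monounsaturated acids, and *Elovl3* is known in mouse liver for being higher in males and for a daily rhythm. The genes described here are these 6, *Fads1*, *Fads2*, *Elovl1*, *Elovl2*, *Elovl3* and *Elovl5*, taken by name from a table of 14506 genes. All 6 are in the table and all 6 passed a filter of a mean of at least 10 normalized reads, as did 11174 genes in all. *Fads2*, *Elovl5* and *Elovl3* were selected on their log2 differences between genotypes in these same livers, and the others as members of the same enzyme families, so every genotype difference of the 6 genes is given as a description, with no test.

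RNA was measured in whole livers of 4 *Rragc* +/+ and 4 *Rragc* S74N/+ mice. *Rragc* encodes RagC, a Rag GTPase through which mTORC1 senses nutrients, and S74N is an activating substitution, edited into 1 of the 2 alleles in every cell of the body. Among *Rragc* +/+ mice, replicates 1, 2 and 3 were 3 months old and replicate 4 was 2.5 months old. Among *Rragc* S74N/+ mice, replicates 1 and 2 were 3 months old, replicate 3 was 2.5 months old and replicate 4 was 2 months old. All mice were of the C57BL/6 background and were kept on standard chow. The labels give neither sex nor the hour of collection. Where a value is given for each liver, replicates 1 to 4 are in that order. Values are normalized read counts from libraries that read transcripts near their poly(A) tail, whatever their length, so levels of different genes can be set side by side. In whole tissue, fewer cells of a type and less RNA per cell cannot be told apart.

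*Rragc* itself was at 77.4, 83.2, 63.7 and 112 normalized reads in the 4 *Rragc* +/+ livers and at 71.6, 69.3, 84.7 and 80.8 in the 4 *Rragc* S74N/+ livers. The ranges overlapped. The edit replaces bases within the coding sequence, so this level does not check the labels. Between 4313076 and 6632108 reads per liver were counted in listed genes, and the 6 genes took between 0.137% and 0.204% of them. The lowest read number behind any value of the 6 genes was 111. The livers held hepatocyte markers at a mean log2 level of 13.6 to 14.5, and 6 of 8 adipocyte markers, among them *Adipoq* and *Plin1*, are not analysed here. The remaining adipocyte genes summed to between 4.59 and 32.6 normalized reads. One liver stood apart, that of the 2-month-old mouse, *Rragc* S74N/+ replicate 4, and values are given below with and without it.

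On GRCm38, *Fads1* and *Fads2* lie head to head on chromosome 19, *Fads1* at chr19:10182888-10196877 on the forward strand and *Fads2* at chr19:10062765-10101746 on the reverse strand, with 81.1 kb between them. *Elovl3* is farther along that chromosome, at chr19:46131897-46135694 on the forward strand. *Elovl5* is at chr9:77917364-77984519 (forward), *Elovl2* at chr13:41182381-41220405 (reverse) and *Elovl1* at chr4:118428093-118432953 (forward). *Elovl1* overlaps *Cdc20* and *Elovl3* overlaps *Pitx3*, each on the opposite strand, and reads were counted by strand. RefSeq promoter windows, 250 bases before to 50 after a start site, were matched for *Elovl1* (2 windows), *Elovl2* (2 windows), *Elovl5* and *Fads2*. The part of the *Elovl5* window before the start site is shown because *Elovl5* had the largest positive log2 difference of the 6 genes between genotypes. Capitals mark an E box (CACGTG) that begins 161 bases before the start site, and 2 CCAAT boxes, read here on the opposite strand as ATTGG, that begin 71 and 17 bases before it.
Elovl5, chr9:77917115-77917364, forward strand, GRCm38.p6: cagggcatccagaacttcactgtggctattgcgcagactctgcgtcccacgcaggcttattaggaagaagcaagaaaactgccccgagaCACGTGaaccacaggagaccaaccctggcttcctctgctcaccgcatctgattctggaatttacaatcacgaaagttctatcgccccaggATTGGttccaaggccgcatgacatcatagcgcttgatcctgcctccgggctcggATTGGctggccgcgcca

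Of the 32851 promoter windows in the reference table, 7.15% held CACGTG and 37.4% held CCAAT on either strand. A cAMP response element (TGACGTCA), held by 1.79% of windows, begins at base 4 after the *Elovl5* start site. The GC box (GGGCGG, 35.7% of windows) was in the *Fads2* window, in both *Elovl1* windows and in 1 of the 2 *Elovl2* windows, and not in that of *Elovl5*. A CCAAT box was also in 1 of the 2 *Elovl1* windows. The sterol response element (TCACNCCAC, 1.24% of windows) and the direct repeat 1 bound by PPARA with RXR (0.0396% of windows) were in none of the 6 windows. These letters describe the windows and are not evidence of binding.

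Across the 8 livers the 6 genes fell into an order from *Elovl3* and *Elovl2* at the top to *Elovl1* and *Fads2* at the bottom. The mean normalized read count was 3597 ± 1862 (SD, n = 8) for *Elovl3*, 2781 ± 972 for *Elovl2* and 1753 ± 831 for *Elovl5*. It was 1118 ± 506 for *Fads1*, 279 ± 105 for *Elovl1* and 179 ± 63.5 for *Fads2*. By mean log2 level *Elovl2* came before *Elovl3*. Neighbours in the order by mean log2 level were compared within each liver by an exact two-sided sign-flip permutation test, adjusted over 5 pairs, for which the smallest unadjusted p is 0.00781. *Elovl5* exceeded *Fads1* by 0.63 ± 0.31 (SD, n = 8) on the log2 scale, in 7 of 8 livers (exact adjusted p = 0.0391). *Fads1* exceeded *Elovl1* by 1.98 ± 1.07, in 8 of 8 livers (exact adjusted p = 0.0391). *Elovl1* exceeded *Fads2* by 0.62 ± 0.56, in 7 of 8 livers, which did not pass (exact adjusted p = 0.0521).

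The top of the order turned on a single liver. *Elovl2* and *Elovl3* did not differ beyond their spread over all 8 livers (0.10 ± 2.29, exact adjusted p = 0.984), nor did *Elovl3* and *Elovl5* (0.63 ± 2.44, exact adjusted p = 0.635). Without *Rragc* S74N/+ replicate 4, *Elovl3* stood above *Elovl2* by 0.68 (exact adjusted p = 0.0469) and above *Elovl5* by 1.44 (exact adjusted p = 0.0391), and *Elovl1* stood above *Fads2* by 0.70 (exact adjusted p = 0.0469). That liver was set apart with its low *Elovl3* known, so the p-values of *Elovl3* without it are a description only. Leaving out any other liver but *Rragc* +/+ replicate 2 took *Elovl5* over *Fads1* to an exact adjusted p of 0.0521 to 0.0781, with 7 livers left, and *Fads1* over *Elovl1* went to 0.0781 without any one of *Rragc* +/+ replicates 1 and 4 and *Rragc* S74N/+ replicates 1 to 3.

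*Fads2*, the entry point of the pathway, was lower in *Rragc* S74N/+ livers. Its normalized read count was 256, 173, 204 and 280 in the 4 *Rragc* +/+ livers and 102, 117, 157 and 145 in the 4 *Rragc* S74N/+ livers. The groups did not overlap, as in 2.94% of all genes tested in either direction, and the highest *Rragc* S74N/+ liver lay 15.9 normalized reads under the lowest *Rragc* +/+ liver. Those livers held 141 and 185 reads of *Fads2*, and whether this gap exceeds counting error was not tested. The means were 228 ± 48.8 (SD, n = 4) and 130 ± 25.3 (SD, n = 4), a log2 difference of -0.80 with a standard error of 0.24. *Rragc* S74N/+ replicate 4 lay within its group for this gene, and the difference was -0.86 without it. Among the 3-month-old mice alone the difference was -0.92 (SE 0.29).

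*Elovl3*, an elongase of saturated and monounsaturated chains, was the other gene of the 6 whose groups did not overlap. It was at 5978, 5445, 4105 and 4326 normalized reads in the 4 *Rragc* +/+ livers and at 2566, 3709, 2544 and 102 in the 4 *Rragc* S74N/+ livers. All 4 *Rragc* S74N/+ livers were below the lowest *Rragc* +/+ liver, and the last of them was 24.9 times below the lowest of the other 7. The means were 4963 ± 895 (SD, n = 4) and 2230 ± 1520 (SD, n = 4), a log2 difference of -1.96 (SE 0.84). Without *Rragc* S74N/+ replicate 4 the mean was 2940 ± 666 (SD, n = 3) and the log2 difference was -0.76 (SE 0.22), and among 3-month-old mice it was -0.73 (SE 0.26). Of all genes tested, 1.64% had every *Rragc* S74N/+ liver below every *Rragc* +/+ liver. Since *Fads2* and *Elovl3* were noticed for this contrast, nothing is read from their number.

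*Elovl5* and *Fads1*, which act between *Fads2* and *Elovl2*, had higher means in *Rragc* S74N/+ livers. *Elovl5* was at 1175, 894, 1436 and 1295 normalized reads in the 4 *Rragc* +/+ livers and at 2324, 2034, 1403 and 3461 in the 4 *Rragc* S74N/+ livers. Of the *Rragc* S74N/+ livers, 3 of 4 were above the highest *Rragc* +/+ liver, and replicate 3, aged 2.5 months, was inside the *Rragc* +/+ range. The means were 1200 ± 230 (SD, n = 4) and 2306 ± 861 (SD, n = 4), with a log2 difference of 0.89 (SE 0.26). The difference was 0.67 (SE 0.24) without *Rragc* S74N/+ replicate 4 and 0.92 (SE 0.25) in 3-month-old mice.

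*Fads1* showed the same layout. It was at 752, 936, 928 and 686 normalized reads in the 4 *Rragc* +/+ livers and at 1555, 1227, 723 and 2140 in the 4 *Rragc* S74N/+ livers. Again replicate 3 alone of the *Rragc* S74N/+ livers lay inside the *Rragc* +/+ range. The means were 826 ± 126 (SD, n = 4) and 1411 ± 594 (SD, n = 4), with a log2 difference of 0.68 (SE 0.29). It was 0.44 (SE 0.26) without *Rragc* S74N/+ replicate 4 and 0.67 (SE 0.24) in 3-month-old mice.

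*Elovl2* and *Elovl1* overlapped widely between genotypes. *Elovl2*, the elongase closest to docosahexaenoic acid, was at 2132, 3024, 1900 and 2515 normalized reads in the 4 *Rragc* +/+ livers and at 2752, 2363, 2532 and 5028 in the 4 *Rragc* S74N/+ livers. Its higher mean in *Rragc* S74N/+ came from replicate 4, since the log2 difference of 0.36 (SE 0.26) was 0.11 (SE 0.21) without that liver. *Elovl1*, which supplies very long saturated chains for sphingolipids, was at 291, 332, 178 and 421 in the 4 *Rragc* +/+ livers and at 236, 202, 420 and 154 in the 4 *Rragc* S74N/+ livers. Each genotype held both high and low livers, and the log2 difference was -0.31 (SE 0.33), or -0.10 (SE 0.32) without *Rragc* S74N/+ replicate 4.

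**Figure D1:**
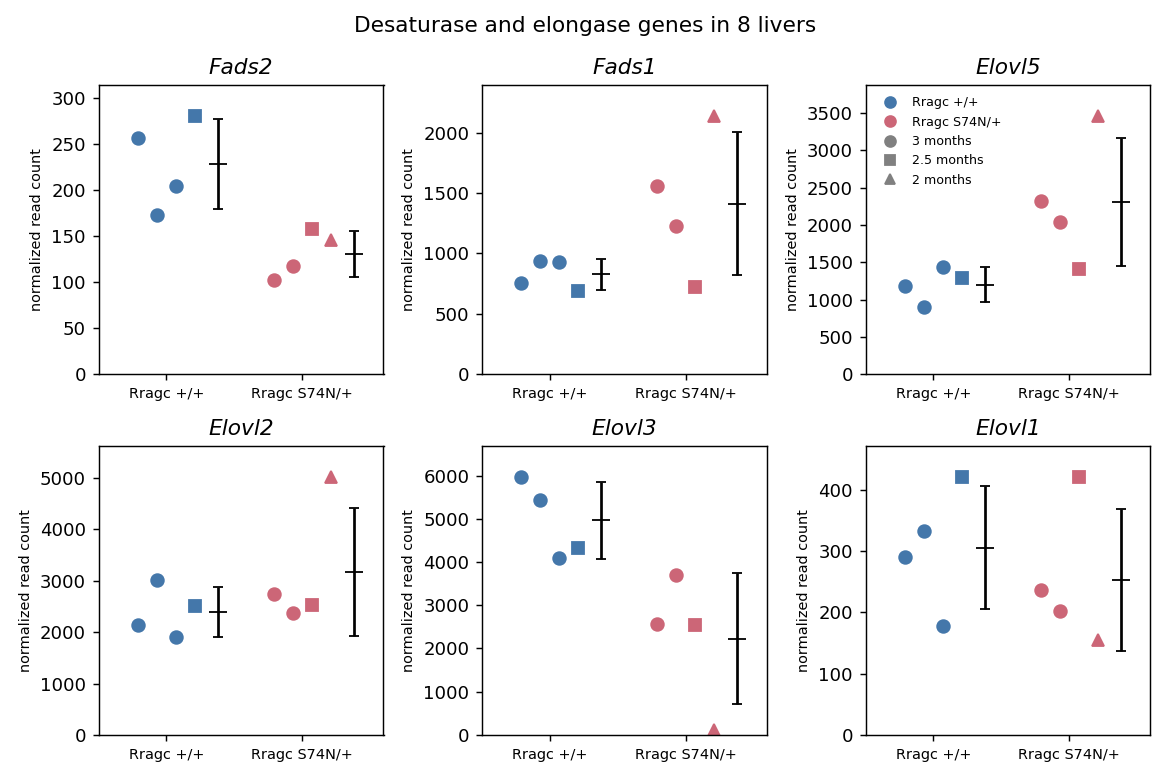
Normalized read counts (vertical axes, linear from 0) of the 6 genes in each of 8 livers, by genotype, with the age of the mouse as the symbol; black bars are the mean ± SD of 4 livers. *Fads2* and *Elovl3* do not overlap between genotypes, and the 2-month-old mouse is at 102 for *Elovl3*, below all other livers.

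**Figure D2:**
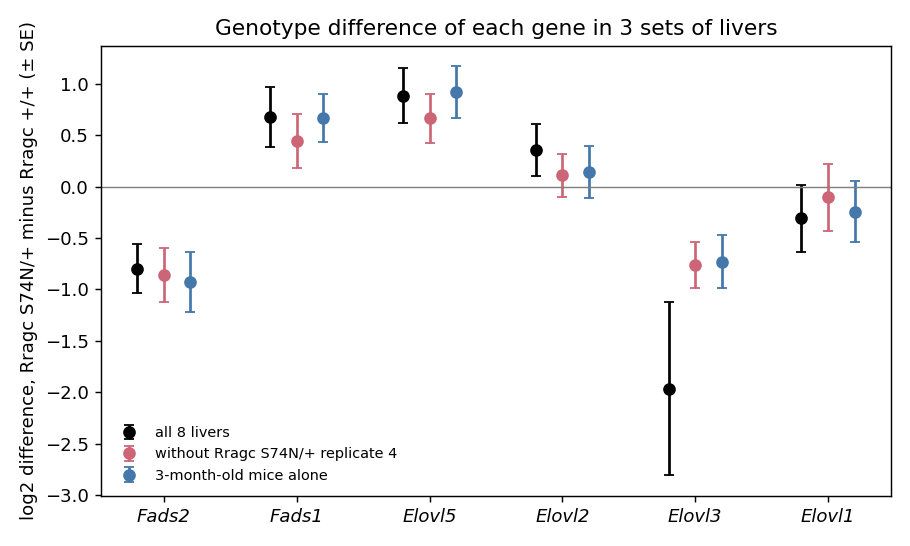
Difference in mean log2(normalized count + 1), *Rragc* S74N/+ minus *Rragc* +/+, for each gene, with bars of 1 standard error of the limma fit, in all 8 livers, without *Rragc* S74N/+ replicate 4, and in 3-month-old mice alone. *Elovl3* moves from -1.96 to -0.76 when replicate 4 is left out, while *Fads2* and *Elovl5* keep most of their difference.

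Markers of other liver cells were set beside these levels. The mean log2 level of 8 Kupffer cell markers was 7.17 to 7.42 in *Rragc* +/+ and 7.45 to 8.14 in *Rragc* S74N/+ livers. That of 7 tested stellate cell markers was 7.23 to 7.40 and 6.98 to 7.21. Neither mean log2 level overlapped, but the summed normalized reads of the listed markers did. The sums were 1849 to 3325 and 2119 to 3712 for Kupffer cells, and 2197 to 2705 and 1824 to 2343 for stellate cells. Of the 8 Kupffer cell markers, 6 had a positive and 2 a negative log2 difference, with a median of 0.17. At an unadjusted limma p under 0.05 none was lower and 2 were higher, where 2.37% of all genes tested were higher. One of them, *Marco*, a scavenger receptor of these cells, was at 20.5 to 25.5 normalized reads in *Rragc* +/+ and 37.9 to 124.8 in *Rragc* S74N/+ livers, and was called by DESeq2 (log2 2.02, adjusted p = 0.00409) and not by limma (log2 1.82, SE 0.37, adjusted p = 0.846). The other, *Adgre1*, overlapped between genotypes, with a log2 difference of 0.80 (SE 0.35). The mean log2 level of the 2 tested kidney tubule markers, *Kap* and *Napsa*, was 4.67 to 5.68 in *Rragc* +/+ and 2.32 to 4.38 in *Rragc* S74N/+ livers, without overlap. *Umod*, *Cdh16* and *Slc22a6* are not analysed here. The 1 tested pancreatic acinar marker, *Cela1*, was lower at an unadjusted limma p under 0.05. Its log2 level was 7.87 to 8.77 in *Rragc* +/+ and 6.54 to 7.91 in *Rragc* S74N/+ livers, with overlap. The mean log2 levels of the hepatocyte, sinusoidal endothelial, cholangiocyte and leukocyte lists overlapped between genotypes. At an unadjusted limma p under 0.05, 1 of 8 sinusoidal endothelial and 1 of 4 leukocyte markers tested were higher. At that level 1 of 7 stellate cell and 1 of 2 kidney tubule markers tested were lower, where 2.8% of all genes tested were lower. The part of these cells in the levels of the 6 genes was not tested.

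The spread of *Elovl3* over the livers was wide because of 1 liver. The standard deviation of the log2 level over the 8 livers put *Elovl3* at percentile 99.5 of all genes tested, and the other 5 genes between percentiles 43.4 and 70.4. Without *Rragc* S74N/+ replicate 4 *Elovl3* was at percentile 56.5, with a log2 SD of 0.48 in place of 1.91, and the other 5 were between 9.60 (*Elovl2*) and 64.4 (*Fads2*). Within *Rragc* +/+ livers, *Elovl3* was at percentile 24.2, and its coefficient of variation was 18.0%, within the 15.3% to 33.0% of the 6 genes. Counting error was below this: at the lowest read number of each gene it was between 2.73% and 9.49% of the value. The 9.49% was that of *Fads2*, whose coefficient of variation was 21.4% in *Rragc* +/+ and 19.4% in *Rragc* S74N/+ livers.

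The make-up of the reads of the 6 genes differed accordingly. *Elovl3* held 56.5%, 50.4%, 46.9% and 45.4% of the reads of the 6 genes in the 4 *Rragc* +/+ livers and 26.9%, 38.4%, 32.7% and 0.92% in the 4 *Rragc* S74N/+ livers. The 95% Wilson interval of the last share was 0.78% to 1.10%, which covers counting error only. *Elovl3* was the most abundant of the 6 in every *Rragc* +/+ liver and the least abundant in *Rragc* S74N/+ replicate 4. *Elovl2* held between 20.1% and 28.0% in *Rragc* +/+ livers, between 24.5% and 32.5% in *Rragc* S74N/+ replicates 1 to 3, and 45.6% in replicate 4. *Elovl5* held between 8.28% and 16.4%, between 18.0% and 24.4%, and 31.4% in the same 3 sets. Since shares add to a whole, a low *Elovl3* raises the others.

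**Figure D3:**
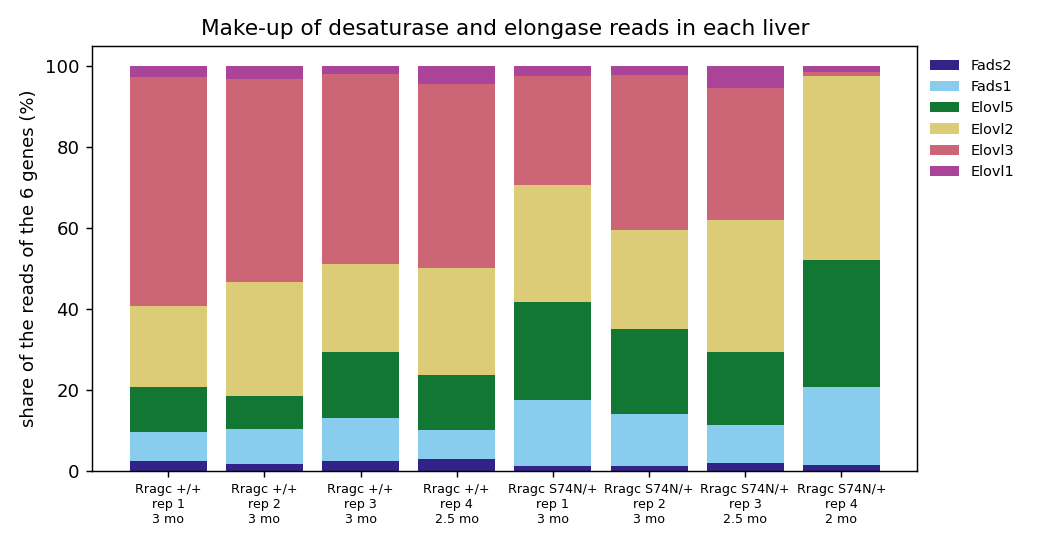
Share of the reads of the 6 genes (%) taken by each gene in each liver, with replicate and age under each bar. *Elovl3* takes 45.4% to 56.5% in *Rragc* +/+ livers and 0.92% in *Rragc* S74N/+ replicate 4, where *Elovl2* takes 45.6%.

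Ratios within a liver do not depend on how libraries were scaled. The ratio of *Fads1* to *Fads2*, the late to the early desaturase, was 2.93, 5.41, 4.56 and 2.45 in the 4 *Rragc* +/+ livers and 15.3, 10.5, 4.60 and 14.7 in the 4 *Rragc* S74N/+ livers. It was highest in 3 of the 4 *Rragc* S74N/+ livers, and replicate 3 lay inside the *Rragc* +/+ range. The ratio of *Elovl5* to *Fads2* was 4.58 to 7.05 in *Rragc* +/+ and 8.93 to 23.8 in *Rragc* S74N/+ livers, with no overlap. The ratio of *Elovl3* to *Elovl2* was 1.72 to 2.80 in *Rragc* +/+ livers, 0.933 to 1.57 in *Rragc* S74N/+ replicates 1 to 3, and 0.0203 in replicate 4. *Elovl5* to *Elovl2* overlapped, at 0.296 to 0.756 in *Rragc* +/+ and 0.554 to 0.861 in *Rragc* S74N/+ livers. These ratios rest on the genotype levels above and add no separate evidence.

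**Figure D4:**
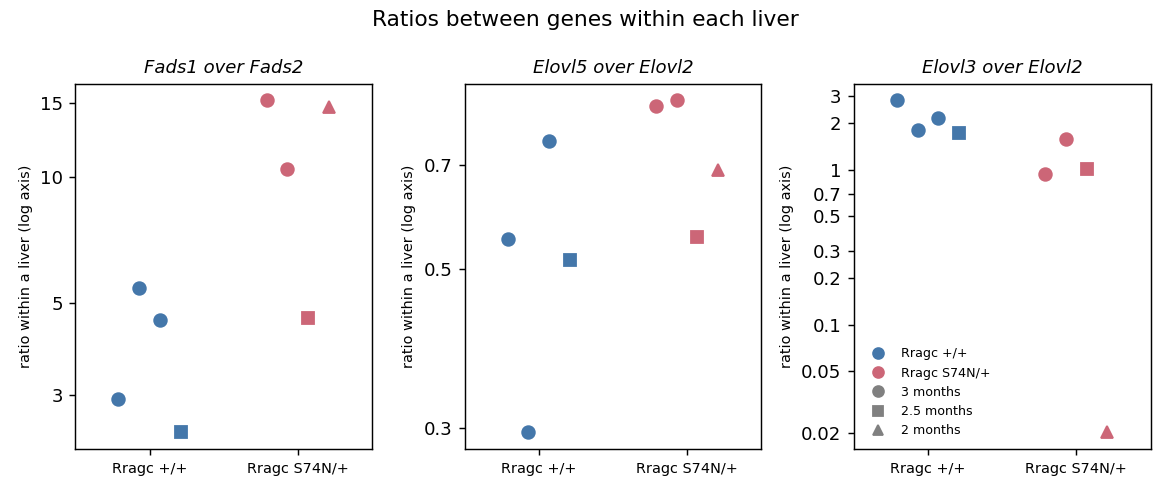
Ratio of normalized read counts within each liver (log axes) for *Fads1* over *Fads2*, *Elovl5* over *Elovl2* and *Elovl3* over *Elovl2*, by genotype, with age as the symbol. *Fads1* over *Fads2* reaches 15.3 in *Rragc* S74N/+ livers against at most 5.41 in *Rragc* +/+ livers, and *Elovl3* over *Elovl2* drops to 0.0203 in the 2-month-old mouse.

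*Rragc* S74N/+ replicate 4 also differed in genes that depend on sex in mouse liver. It was the lowest of the 8 livers for *Elovl3* and *Elovl1*, the highest for *Fads1*, *Elovl2* and *Elovl5*, and inside the range of the others for *Fads2*. The mean log2 level of the 22 tested genes of a list of 23 male-biased liver genes was 7.49 in this liver, 10.4 to 10.5 in *Rragc* +/+ livers and 9.60 to 10.2 in the other *Rragc* S74N/+ livers. The major urinary protein gene *Mup1* was at 96.3 normalized reads there and at 2068 to 10147 in the other 7 livers, although reads of near-identical *Mup* genes are uncertain between copies. The 5 tested genes of a list of 20 female-biased liver genes had a mean log2 level of 8.11 there and of 2.98 to 4.42 elsewhere. Among them, *Cyp17a1*, a steroid hydroxylase, was at 799 normalized reads in this liver and at 1.41 to 35.6 in the other 7. The 4 Y-linked genes listed were read in every liver, with mean log2 levels of 6.46 to 7.05, the highest in replicate 4. Transcripts of the Y chromosome, which female mice lack, were thus found in all 8 livers. Age, this liver and genotype cannot be told apart here, since no *Rragc* +/+ mouse was as young, and the part of the sex-biased genes in the *Elovl3* difference was not tested.

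Each of the 6 genes was set against 5 scores, each the mean log2 level of a list (SREBP1 lipogenic, SREBP2 cholesterol, PPARA target and male-biased liver genes, and dawn minus dusk clock genes). Of 30 relations over the 8 livers, none passed adjustment in exact permutation tests of Pearson's r or of Spearman's rho. Outside the male-biased score, the smallest adjusted p over the 30 was 0.255 for r and 0.321 for rho. The male-biased score itself did not overlap between genotypes, so r over all livers holds the genotype contrast again and is given without a p for this score, beside r of values centred within genotype, permuted within genotype. *Elovl3* had r = 0.96 and rho = 0.76 with the male-biased score, and r = 0.95 when centred (exact adjusted p = 0.556). Its r was 0.77 without the 2 livers farthest from the median score and 0.51 without *Rragc* S74N/+ replicate 4. *Elovl5* had r = -0.80 and rho = -0.67 with this score, r = -0.67 when centred (exact adjusted p = 0.588), and r = -0.33 without the 2 farthest livers. *Fads1* had r = -0.75 and rho = -0.43, r = -0.61 when centred (exact adjusted p = 0.661), and r = 0.08 without the 2 farthest livers.

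For the clock score, *Fads1* and *Elovl1* had unadjusted p-values under 0.05. *Fads1* ran with it (r = 0.73, exact p = 0.0429, adjusted p = 0.257, and rho = 0.86, exact p = 0.0107, adjusted p = 0.321), and *Elovl1* ran against it (r = -0.75, exact p = 0.0320, adjusted p = 0.255, and rho = -0.69, exact p = 0.0694, adjusted p = 0.623). Without the 2 livers farthest from the median score, r was 0.65 for *Fads1* and -0.20 for *Elovl1*, so that the relation of *Elovl1* rests on those livers. They were the livers of the 2.5-month-old mice, whose clock scores were -0.66 (*Rragc* +/+ replicate 4) and -1.26 (*Rragc* S74N/+ replicate 3), against 0.52 to 1.67 in the other 6. With the SREBP1, SREBP2 and PPARA scores, no relation of the 6 genes had an unadjusted exact permutation p under 0.05 over the 8 livers.

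**Figure D5:**
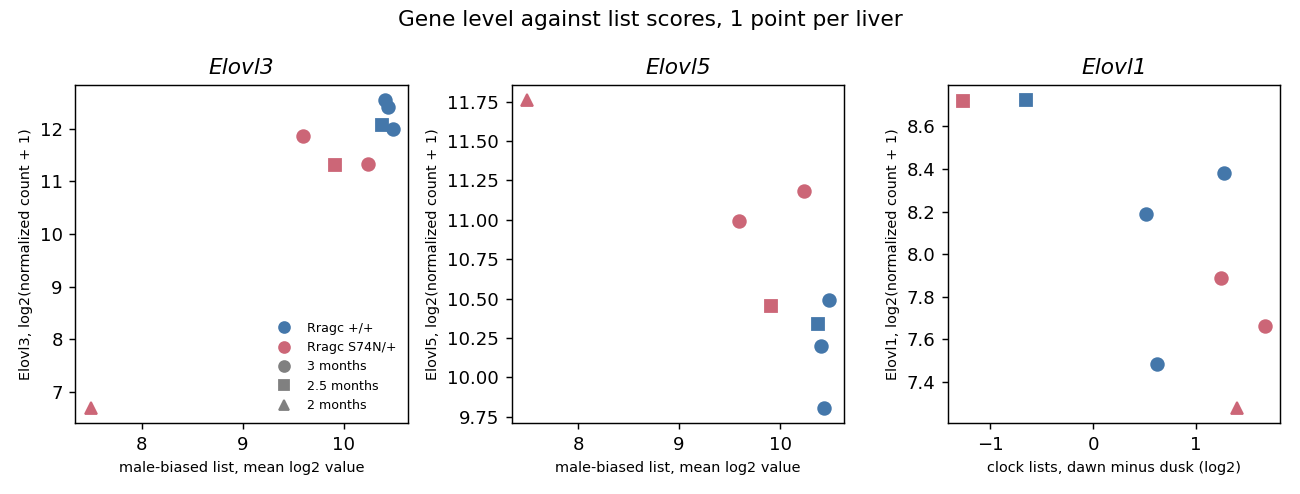
Log2(normalized count + 1) of *Elovl3* and *Elovl5* against the mean log2 level of the male-biased list, and of *Elovl1* against the dawn minus dusk clock score, 1 point per liver, colored by genotype and with age as the symbol. The 2-month-old mouse lies alone at a male-biased score of 7.49, and the mice aged 2.5 months hold the lowest clock scores, -0.66 and -1.26, and the highest *Elovl1*.

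The choice of genes had not used the age labels. *Elovl3* was chosen on a log2 genotype difference of -1.96, or -0.76 without the 2-month-old *Rragc* S74N/+ mouse. Its age coefficient draws on that same mouse, so the coefficient and its p-values are a description only. In a limma fit with genotype and age over all 8 livers, no gene of 11174 passed an adjusted p of 0.05 (0% of genes tested, 3.11% at an unadjusted p under 0.05), edgeR called 0 and DESeq2 called 14 (0.125%). *Elovl3* had a coefficient of 3.65 log2 units per month (SE 0.81), with an unadjusted p under 0.05 but an adjusted p = 0.766 in limma. Without the 2-month-old mouse it was 0.52 (SE 0.43), with an adjusted p = 0.539 in limma. *Elovl2* had a coefficient of -0.75 per month (SE 0.34), with an unadjusted p under 0.05 that did not pass adjustment, and of -0.12 without that mouse. The 4 remaining genes had coefficients from -0.55 (*Fads2*) to -0.08 (*Elovl1*), none with an unadjusted p under 0.05.

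Leaving out the 2-month-old mouse compares 2.5 with 3 months, with 1 mouse of each genotype at 2.5 months, and in that fit 415 genes passed (3.71%). None of the 6 genes was among them. *Fads1* had a coefficient of 1.24 log2 units per month (SE 0.43), with an adjusted p = 0.122 in limma, and *Elovl1* one of -1.63 (SE 0.52), with an adjusted p = 0.0900. In levels, *Elovl1* was at 421 and 420 normalized reads in the 2 mice aged 2.5 months and at 178 to 332 in the 5 mice aged 3 months, and *Fads1* was at 686 and 723 against 752 to 1555. Both 2.5-month-old livers lay above all 3-month-old livers in 11.3% of genes tested and below them in 12.9%. Age of 2.5 months and the clock scores above moved together, and their parts in these levels cannot be told apart.

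The genes whose levels over the 8 livers were most like each of the 6 were looked up among 6916 other genes with a mean of at least 50, as Pearson's r of log2 levels. *Elovl3* was most like *Cyp2d9* (r = 0.98), *Slco1a1* (0.97) and *Mup21* (0.97), all on the male-biased list, and r was between 0.51 and 0.68 without *Rragc* S74N/+ replicate 4. *Elovl5* was most like *Pde4b* (0.99), a cAMP phosphodiesterase, *Slc6a6* (0.97), the taurine transporter, and *Rtn4* (0.95). *Fads1* was most like *Rpl32* (0.99), a ribosomal protein gene, *Gnpnat1* (0.98) and *Atp5c1* (0.97). *Fads2* was most like *Fam114a1* (0.95), *Ddx46* (0.95) and *Acp2* (0.94), *Elovl1* like *March6*, *Eif3d* and *Egln2* (0.96 each), and *Elovl2* like *Sarnp* (0.95), *Hgd* (0.94) and *Cycs* (0.94). These are the highest of many values over livers that share genotype, age and scaling. Among the 6 genes themselves, *Fads1* and *Elovl5* ran together (r = 0.87, or 0.72 without replicate 4) and *Fads1* and *Fads2* ran opposite (r = -0.71, or -0.86 without replicate 4).

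The rest of the pathway was read from lists around the 6 genes. Over all 11174 genes the genotype contrast gave 1 gene with an adjusted limma p under 0.05 (0.00895%) and 5.17% with an unadjusted p under 0.05, and edgeR called 1 gene (0.00895%) and DESeq2 10 (0.0895%). Of 157 tested genes in 14 lists outside the 6 genes, limma and edgeR called 0 and DESeq2 called 1, while 6 were higher (3.82%) and 16 lower (10.2%) in *Rragc* S74N/+ at an unadjusted limma p under 0.05, beside 2.37% higher and 2.8% lower of all genes tested. The male-biased list alone held 11 of the 16. Several genes of that list are *Mup* genes, whose reads are uncertain between near-identical copies, so the genes counted may not be separate. The median log2 difference over the 22 tested genes of the list was -1.04, and -0.50 without *Rragc* S74N/+ replicate 4, beside 0.01 over all genes tested. *Selenbp2*, *Mup12* and *Mup1* had the largest differences in it, from -2.06 to -2.45, and from -1.18 to -1.32 without that liver.

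None of the 5 tested desaturases and elongases outside the 6 genes passed the test in either direction, and none had an unadjusted limma p under 0.05. *Scd1*, the desaturase that makes oleic acid, was far more abundant than any of the 6 genes, at 20282 ± 8753 (SD, n = 4) normalized reads in *Rragc* +/+ livers against 23847 ± 5492 (SD, n = 4) with the S74N allele, a log2 difference of 0.33 (SE 0.33). *Elovl6*, the elongase of palmitate, differed by -0.11 (SE 0.30), *Fads6* by -0.42 (SE 0.28), *Degs1*, the ceramide desaturase, by 0.21 (SE 0.22) and *Scd2* by 0.07 (SE 0.58). *Fads3*, *Scd3* and *Elovl7* were under the filter, and *Elovl4*, *Scd4* and *Degs2* were not analysed here.

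An elongase performs only the opening step of the cycle that adds carbons to a chain, and the enzymes of the later steps are shared by all elongases. None of the 9 tested genes for these steps and for the cytochrome b5 electron supply of the desaturases passed, and none had an unadjusted limma p under 0.05. *Hsd17b12*, the ketoreductase, differed by -0.17 (SE 0.21), *Tecr*, the final reductase, by -0.26 (SE 0.24), and *Hacd3*, a dehydratase, by -0.23 (SE 0.25) on the log2 scale. *Hacd2*, another dehydratase, had the largest difference of the list, 1.26 (SE 0.59), from 42.3 ± 38.3 (SD, n = 4) to 100.3 ± 70.9 (SD, n = 4) normalized reads, with overlapping groups. *Cyb5a*, the electron donor, differed by 0.43 (SE 0.34).

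Of 12 tested genes of peroxisomal chain shortening, by which docosahexaenoic acid is finished, none passed. *Abcd2*, a peroxisomal importer of fatty acids, was the only one with an unadjusted limma p under 0.05, with a log2 difference of 1.48 (SE 0.64, adjusted p = 0.846), and 1.03 without *Rragc* S74N/+ replicate 4. Its groups overlapped, at 9.32 to 31.8 normalized reads in *Rragc* +/+ livers and up to 133 in *Rragc* S74N/+ livers, the lowest of which lay inside that range. *Hsd17b4*, an enzyme of the same cycle named after its values were seen, went the other way without overlap, at 433 to 532 and 277 to 408 normalized reads, with a log2 difference of -0.40 (SE 0.20, adjusted p = 0.846). Of 14 tested genes of fatty acid activation and phospholipid remodelling none passed, and 1 was lower at an unadjusted limma p under 0.05, the phospholipase gene *Pla2g6*, at -0.64 (SE 0.26). *Acsl4*, which activates arachidonic acid, differed by 0.69 (SE 0.34). Of 4 ceramide synthases none passed and 1 was higher at an unadjusted p under 0.05, *Cers6*, at 1.27 (SE 0.47), with *Cers2* at 1.02 (SE 1.06) and *Cers5* at -0.18 (SE 0.43). *Mfsd2a*, a carrier of docosahexaenoic acid bound to lysophospholipid, differed by 1.35 (SE 0.85) at a mean of 7.72 normalized reads in *Rragc* +/+ livers.

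The regulators that are known to drive desaturase and elongase genes did not pass either. Of 18 tested transcription factors and cofactors none had an unadjusted limma p under 0.05. *Srebf1*, which encodes the lipogenic factor SREBP1, was at 53.1, 35.5, 130.1 and 55.1 normalized reads in the 4 *Rragc* +/+ livers and at 241, 16.9, 29.0 and 235 in the 4 *Rragc* S74N/+ livers. The *Rragc* S74N/+ livers held both the 2 highest and the 2 lowest values, around those of *Rragc* +/+. *Ppara*, the fatty acid sensor, differed by -0.56 (SE 0.36), *Nr1h3*, which encodes the sterol sensor LXR alpha, by -0.13 (SE 0.20), and *Rxra* by -0.32 (SE 0.19).

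Among targets of these factors, no gene of 16 SREBP1 lipogenic genes passed or had an unadjusted limma p under 0.05. Of 23 SREBP2 cholesterol genes, 2 were lower at an unadjusted p under 0.05, *Mvd* at -1.25 (SE 0.39) and *Msmo1* at -0.66 (SE 0.27), both enzymes of cholesterol synthesis with an adjusted p = 0.846 in limma. Of 23 PPARA target genes, 3 were higher and 2 lower at that level. *Acot3*, a peroxisomal acyl-CoA thioesterase, was at 7.46, 5.61, 15.6 and 4.67 normalized reads in the 4 *Rragc* +/+ livers and at 25.7, 18.7, 53.5 and 86.5 in the 4 *Rragc* S74N/+ livers. The groups did not overlap, and it was the only gene of the 14 lists called by any tool, by DESeq2 (log2 2.52, adjusted p = 0.036) and not by limma (log2 2.22, SE 0.55, adjusted p = 0.846) or edgeR (adjusted p = 0.812). *Cyp4a14*, a fatty acid hydroxylase, differed by 1.99 (SE 0.62), with an adjusted p = 0.846 in limma.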

How the data were processed

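Libraries from 8 livers were made with a kit that primes at the poly(A) tail and keeps strand. Per the labels and the study's methods, the authors checked reads with FastQC 0.11.7, aligned them to GRCm38 with TopHat2 2.0.10, Bowtie 1.0.0 and SAMtools 0.1.19, counted them by strand with HTSeq 0.6.1 and scaled them with DESeq2. The authors deposited this signal for each gene as a scaled read count. Every value (100%) was a whole multiple of its liver's step within a tolerance of 1e-06, which gave back the reads behind it, with size factors from 0.707 to 1.23. Here limma 3.58.1 (R 4.3.3, empirical Bayes with trend) was fitted to log2(normalized count + 1) of all 11174 genes whose mean reached 10, with Benjamini-Hochberg adjustment at 0.05. This scale understates changes of low genes. edgeR 4.0.16 and DESeq2 1.42.0 on the recovered reads were alternatives, as were other pseudocounts, filters and scalings, a term for age, a fit to 3-month-old mice and leaving out each liver. A standard error of a genotype difference is that of the limma fit. Groups and ages came from the labels, replicate numbers follow sample order, and nothing beyond the labels says how the mice were kept apart, so p-values measure the spread between these livers.

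The 6 genes and all lists were chosen with earlier results of these data known. The genes that could be named were the 6 genes, *Rragc*, genes of the desaturase, elongation cycle and transcription factor lists, in other lists genes past the threshold by any tool and the 3 with the largest log2 difference, and the 3 genes most like each of the 6. The age grouping of *Elovl1* and *Fads1* was noticed, and the cell type markers and *Hsd17b4* were named, after their values were seen. Gene coordinates are those of GENCODE M21, a release near the one the authors counted against. Scripts were tested on simulated data.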

Additional observations from a re-analysis of the deposited data

Results flagged for a closer look

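Of 32 sets of 4 livers examined (16 values in each genotype), 4 held a liver whose gap to its nearest neighbour was over Dixon's 95% critical share of the set's range. About 1.6 would be flagged among 32 independent sets, but these sets share livers and genes, so the 2 numbers cannot be compared. *Elovl3* and its ratio to *Elovl2* rest on the same value, of a gene chosen on its genotype difference. *Elovl3* in *Rragc* S74N/+ replicate 4 had a log2 level of 6.69, and the other 3 livers of that genotype had 11.3 to 11.9. The log2 ratio of *Elovl3* to *Elovl2* in the same liver was -5.62, against -0.10 to 0.65. The female-biased list score of that liver was 8.11, and those of the other 3 were at most 4.42. For *Rragc* S74N/+ replicate 3 the dawn minus dusk clock score was -1.26, where the other 3 livers had 1.24 to 1.67.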

How the results depend on the processing

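The log2 genotype difference of each of the 6 genes kept its direction under 11 other settings and without each liver in turn. Leaving out 1 liver gave 0.44 to 0.97 for *Fads1*, -0.92 to -0.69 for *Fads2*, -0.58 to -0.10 for *Elovl1*, 0.11 to 0.48 for *Elovl2*, -2.48 to -0.76 for *Elovl3* and 0.67 to 1.10 for *Elovl5*. Livers could not be paired between genotypes because the labels name no pairs, and the replicate numbers used here only name livers.

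Genes past the threshold for genotype numbered 1 in the limma fit, 0 in limma without the trend, 0 with age as a covariate, 0 in 3-month-old mice alone, 10 by DESeq2, and 0 to 2 without 1 liver, with 2 when *Rragc* S74N/+ replicate 3 was left out. Of the 157 pathway list genes DESeq2 called 1. For age, DESeq2 called 14 genes, and leaving out 1 liver gave 0 to 415, with 415 without *Rragc* S74N/+ replicate 4 and 5 without replicate 3. The age coefficient of *Fads1* turned to 1.24 and that of *Elovl5* to 0.41 without replicate 4, with ranges over left-out livers of -0.40 to 1.24 and -0.65 to 0.41. That of *Elovl1*, near 0 at first, ranged from -1.63 to 0.28 and was 0.056, 0.28, 0.060 and 0.080 without *Rragc* +/+ replicates 3 and 4 and *Rragc* S74N/+ replicates 2 and 3. The within-liver differences without 1 liver were -0.68 to 0.33 for *Elovl2* minus *Elovl3*, 0.34 to 1.44 for *Elovl3* minus *Elovl5*, 0.59 to 0.73 for *Elovl5* minus *Fads1*, 1.72 to 2.16 for *Fads1* minus *Elovl1* and 0.51 to 0.74 for *Elovl1* minus *Fads2*. The r of *Fads1* with the male-biased score was 0.076 without the 2 farthest livers, and recomputing the scores' relations and the spread of the 6 genes without *Rragc* S74N/+ replicate 4 was chosen after seeing the data. The cause of these changes was not tested, and leaving out a liver also leaves fewer livers. Read number limits the 6 genes most at *Fads2*, where 111 reads give a counting error of 9.49%.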
